A study of Homo sapiens with 6 samples.

Results

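A set of 10 SOX genes, which encode transcription factors with an HMG box, was examined in spheroids of the colorectal cancer lines SW480 and SW620. They were chosen by name as SOX2, SOX4, SOX5, SOX6, SOX7, SOX9, SOX12, SOX13, SOX14 and SOX21, and all 10 were measured among 14884 named genes. SOX12 had 2 array features and each of the others had 1, and each gene was read from its brightest feature by mean. No filter on low values was applied, so all 10 entered the test. SW480 comes from a primary colorectal tumour, whereas SW620 comes from a metastasis in a lymph node. The spheroids were kept without serum and with growth factors, and neither line carried a treatment or an engineered allele according to the labels. Total RNA of each line was run on 3 whole-transcript arrays, which the submitters call technical replicates, so every p-value below measures only the spread between such arrays. The study set out to find genes that differ between the tumour-initiating compartments of these lines.

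SOX proteins bind DNA through the HMG box, which sits in the minor groove and bends the helix. Most recognise closely related short sites and gain their specificity from partner factors. They are sorted into groups by the likeness of that domain. SOX2 belongs to group B1 and is an activator of embryonic stem cell and foregut genes, whereas SOX14 and SOX21, of group B2, act mainly as repressors. SOX4 and SOX12 form part of group C, and SOX5, SOX6 and SOX13 make up group D, whose members lack an activation domain of their own and pair through a coiled coil. SOX9 of group E is active at the base of intestinal crypts and in Paneth cells, and SOX7 of group F is best known from endothelium.

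In SW620 spheroids SOX2, SOX4 and SOX5 were at least 3.72-fold higher than in SW480 spheroids, and SOX14 was 6.23-fold lower. SOX13 and SOX7 were slightly higher, SOX6 was slightly lower, and SOX9, SOX12 and SOX21 did not pass the test. Thus 5 of the 10 genes were higher and 2 were lower in limma's moderated test at an adjusted p below 0.05. Of all 14884 genes, 16.0% were called higher and 19.5% lower, 35.6% in all, and of the 9475 genes brighter than the median feature, 49.8% were called in either direction. A difference of at least 2-fold was found for 4 of the 10 SOX genes and for 6.07% of all genes. The arrays of the lines did not overlap for 8 of the 10, against 45.7% of all genes. The 10 genes were listed with earlier results of these data known. These shares therefore do not measure an excess in the SOX family, and 0 of the 9 other SOX genes measured differed by 2-fold. The median log2 difference was 0.10 over the SOX genes and 0.0132 over all genes. These arrays measured whole spheroids, in which fewer cells of a type and less RNA per cell cannot be told apart.

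**Figure D1:**
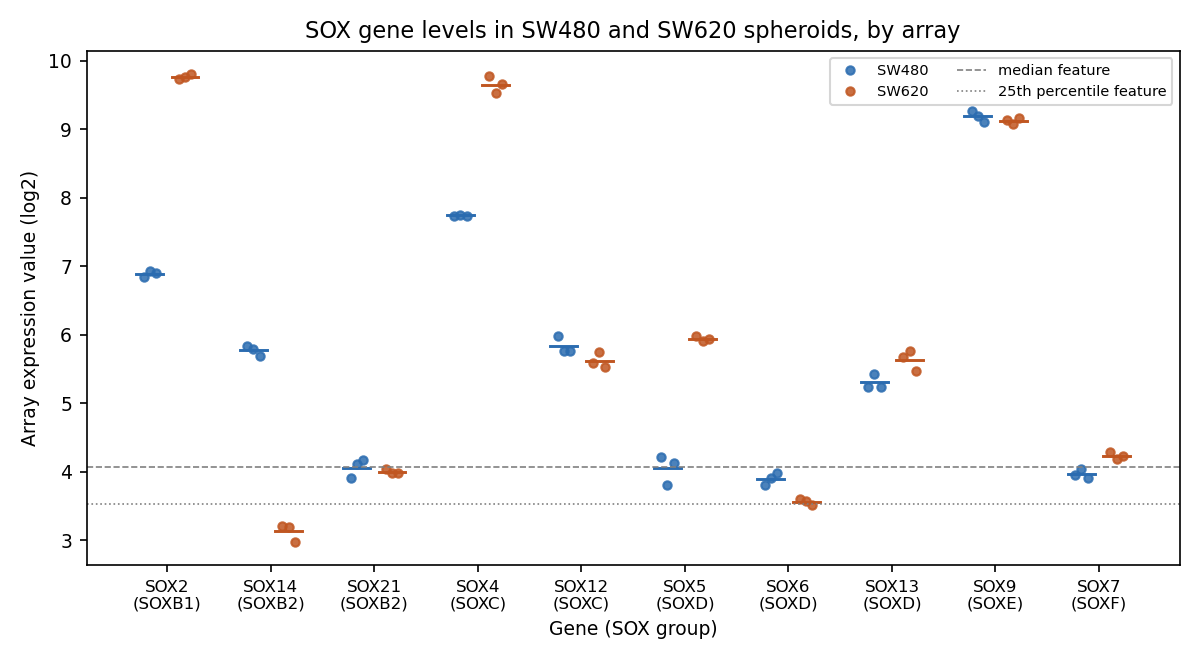
Array expression values (log2) of the 10 SOX genes, with a point for each array, a bar for the mean of 3 arrays, SW480 in blue and SW620 in orange. Dashed and dotted lines mark the median feature (4.065) and the 25th percentile feature (3.53). SOX2, SOX4 and SOX5 sit higher and SOX14 lower in SW620, while the points of SOX9 and of SOX21 overlap.

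The reference sequence upstream of the 3 genes with the largest rises is shown because they lie on different chromosomes and rose in the same line. Each window lies before the annotated start of the gene (RefSeq, GRCh38.p14), written 5′ to 3′ on the strand of the gene. It holds 250 bases for SOX2 and SOX4 and 91 bases for SOX5, whose longer window in the table ran into the gene and was shortened. It is at chr3:181711675-181711924 on the plus strand for SOX2, at chr6:21593501-21593750 on the plus strand for SOX4 and at chr12:24562651-24562741 on the minus strand for SOX5. Capitals mark the SOX core, ACAATG or ACAAAG, and the CCAAT box, CCAAT, on either strand. These are reference letters and not the lines' own DNA. The start is the outer edge of the annotated gene, and windows lying wholly inside a gene were not used. Which start these lines use was not measured.
SOX2: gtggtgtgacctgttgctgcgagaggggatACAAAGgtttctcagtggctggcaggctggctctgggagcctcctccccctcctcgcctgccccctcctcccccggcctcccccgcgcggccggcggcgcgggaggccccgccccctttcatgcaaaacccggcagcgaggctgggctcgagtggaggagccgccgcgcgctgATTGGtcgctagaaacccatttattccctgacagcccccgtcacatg
SOX4: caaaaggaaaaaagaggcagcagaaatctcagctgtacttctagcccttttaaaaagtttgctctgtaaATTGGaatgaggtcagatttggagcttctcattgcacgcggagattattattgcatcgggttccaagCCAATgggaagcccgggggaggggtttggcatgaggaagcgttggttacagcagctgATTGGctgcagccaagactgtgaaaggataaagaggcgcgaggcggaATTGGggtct
SOX5: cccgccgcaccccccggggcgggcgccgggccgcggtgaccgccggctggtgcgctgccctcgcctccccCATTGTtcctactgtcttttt

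The SOX2 window held 1 SOX core, 220 bases before the start, and 1 CCAAT box, 47 bases before it. The SOX4 window held 4 CCAAT boxes and no SOX core, and the shorter SOX5 window held 1 SOX core, 21 bases before the start, and no CCAAT box. Neither element was in all 3 windows. Of 35116 upstream windows of 250 bases, 21.2% held a SOX core, while 32.0% held a CCAAT box and 0.874% held 4 or more. In the 91 bases of each window nearest that window's own start, 8.63% held a SOX core and 16.8% a CCAAT box. The SOX5 bases shown are the far end of its longer window, so these shares are for a different position. The windows also differed in base composition, with a GC content of 68.8% for SOX2 and 48.8% for SOX4, against a median of 58% over windows of 250 bases. The SOX5 window had 75.8% GC, against a median of 60.4% over the nearest 91 bases of each window, again a different position. The upstream window of SOX12, the group C relative of SOX4, had 79.2% GC and held 1 octamer, ATGCAAAT, 188 bases before its start, a motif found in 1.63% of windows. Neither strand of the SOX2, SOX4 or SOX5 window held an octamer, the TCF core ATCAAAG (2.26% of windows) or the TATA box TATAAA (10.7%), shares that are for 250 bases. A match of letters is not a binding site, and no binding was measured here.

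SOX2, of group B1, differed most. Its log2 values were 6.85, 6.92 and 6.91 on the SW480 arrays and 9.73, 9.77 and 9.81 on the SW620 arrays. Every SW620 array was above every SW480 array, and arrays of a line lay close together. The difference was 2.88 (95% interval 2.70 to 3.05; limma adjusted p = 2.22e-11), and it was larger in size than that of 99.5% of all genes. SOX2 is at chr3:181711925-181714436 (GRCh38.p14), inside the longer non-coding gene SOX2-OT, which spans chr3:181056680-181742228. The feature of SOX2-OT was below the 25th percentile feature in SW480, at a mean of 3.43, and at 3.54 in SW620. Its difference of 0.11 (95% interval -0.0567 to 0.29) did not pass the test (limma adjusted p = 0.302), and the interval did not reach the size seen for SOX2.

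The group B2 genes did not move alike. SOX14, known from developing interneurons, had log2 values of 5.83, 5.79 and 5.68 in SW480 and 3.21, 3.20 and 2.98 in SW620. All SW620 arrays lay below the 25th percentile feature (3.53), and the lines did not overlap. The difference was -2.64 (95% interval -2.84 to -2.44; limma adjusted p = 1.87e-10). Its fold rests on a level near the floor in SW620, and no detection calls were used. SOX21, which opposes SOX2 in neural progenitors, ranged from 3.90 to 4.17 in SW480 and from 3.98 to 4.03 in SW620. The arrays overlapped around the median feature (4.065), and the difference of -0.0602 (95% interval -0.26 to 0.14) did not pass (limma adjusted p = 0.667).

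In group C only SOX4 passed the test. SOX4, a factor of progenitor cells and of epithelial to mesenchymal transition, had log2 values of 7.74, 7.75 and 7.74 in SW480 and 9.77, 9.53 and 9.66 in SW620. The lines were far apart, and the spread was wider in SW620 (SD 0.12, n = 3) than in SW480 (SD 0.00558, n = 3). The difference was 1.91 (95% interval 1.72 to 2.10), a 3.76-fold rise (limma adjusted p = 2.31e-09). SOX12, a close relative of SOX4, read 5.98, 5.77 and 5.77 in SW480 and 5.59, 5.74 and 5.52 in SW620. The arrays did not overlap, but the highest SW620 array was just below the lowest SW480 array, and the difference of -0.22 (95% interval -0.43 to -0.0148) missed the threshold (limma adjusted p = 0.0926). The other feature of SOX12 was dimmer and differed by -0.0646. The intervals of SOX4 and SOX12 did not meet.

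The 3 genes of group D went different ways. SOX5, a partner of SOX9 in cartilage and a factor of neural development, read 4.21, 3.80 and 4.12 in SW480 and 5.98, 5.91 and 5.94 in SW620. The SW480 arrays scattered around the median feature (4.065), and all SW620 arrays were clearly above it. The difference was 1.90 (95% interval 1.67 to 2.13), or 3.72-fold (limma adjusted p = 1.52e-08), a fold that rests on a dim level in SW480. SOX6, the other cartilage partner of SOX9 and a regulator of globin genes, read 3.80, 3.90 and 3.99 in SW480 and 3.59, 3.56 and 3.52 in SW620. Its arrays did not overlap between lines, and it was lower in SW620 (difference -0.34, 95% interval -0.52 to -0.15; limma adjusted p = 0.00689). Both of its means lay between the 25th percentile and the median feature, so SOX6 was dim throughout. SOX13, an antigen known from type 1 diabetes, read 5.23, 5.43 and 5.24 in SW480 and 5.67, 5.75 and 5.47 in SW620. The lowest SW620 array was barely above the highest SW480 array, and the difference was 0.33 (95% interval 0.12 to 0.54; limma adjusted p = 0.0185). That call was lost without SW480 replicate 1 (difference 0.30, limma adjusted p = 0.0655), SW480 replicate 3 (0.30, 0.0668), SW620 replicate 1 (0.31, 0.0558) or SW620 replicate 2 (0.27, 0.0795).

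SOX9, of group E, was bright in both lines. It read 9.27, 9.19 and 9.10 in SW480 and 9.13, 9.07 and 9.17 in SW620, and the arrays overlapped. The difference of -0.0632 (95% interval -0.25 to 0.12; limma adjusted p = 0.619) had an interval that reached no farther than 0.25 from 0 on the log2 scale. SOX7, of group F, read 3.95, 4.03 and 3.91 in SW480 and 4.29, 4.18 and 4.23 in SW620. All SW480 arrays lay below the median feature and all SW620 arrays above it, but the gap was small, at a difference of 0.27 (95% interval 0.0900 to 0.45; limma adjusted p = 0.0215). The call was lost without SW480 replicate 1 (difference 0.26, limma adjusted p = 0.0567), SW480 replicate 3 (0.24, 0.0785) or SW620 replicate 1 (0.24, 0.0714).

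**Figure D2:**
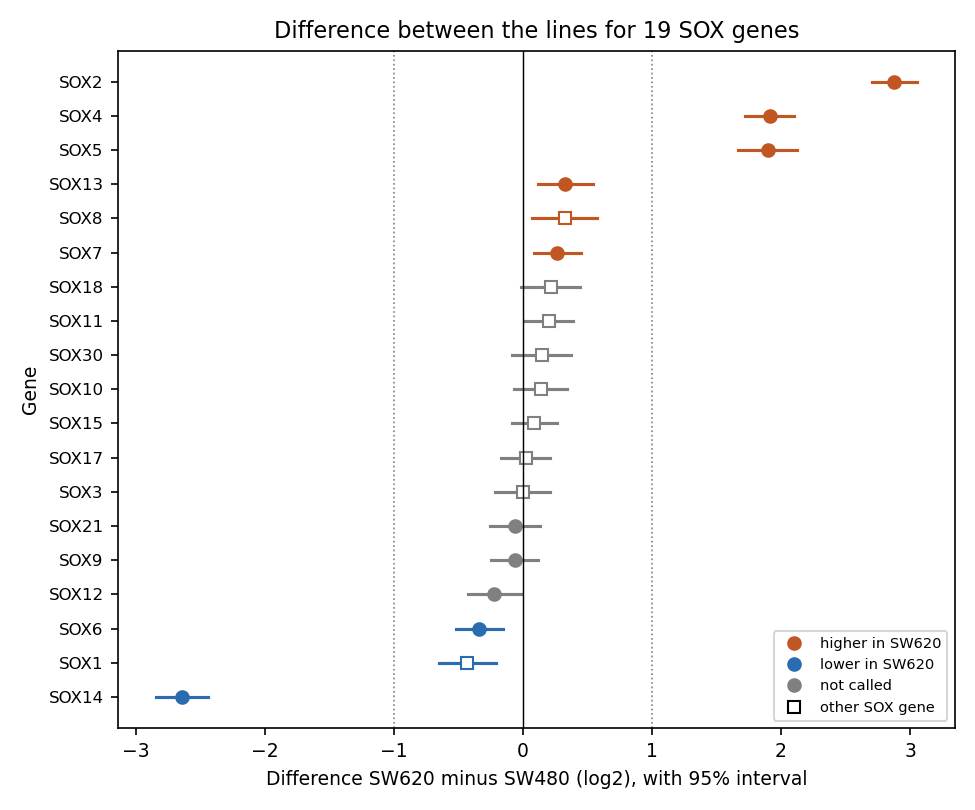
Difference between the lines (SW620 minus SW480, log2) with its 95% interval for 19 SOX genes, circles for the 10 genes described and open squares for 9 others. Colour shows limma's call at an adjusted p below 0.05, and dotted lines mark a 2-fold difference. SOX2, SOX4, SOX5 and SOX14 lie beyond the 2-fold lines and the other genes lie within them.

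Where 35.6% of all genes were called, 1 of the 9 other SOX genes measured was higher, 1 was lower and 0 differed by 2-fold. Their differences ran from -0.43 to 0.33, and 6 of them had means below the median feature, against 2 of the 10 SOX genes described. Because those 10 were listed with earlier results of these data known, the contrast with the 9 others is not a test. SOX1, a neural relative of SOX2 in group B1, was lower in SW620 (4.06 ± 0.13 against 3.63 ± 0.16, SD, n = 3 each; limma adjusted p = 0.00516). SOX8, a relative of SOX9, differed by 0.33 (limma adjusted p = 0.0439) with overlapping arrays. Its call was lost without SW480 replicate 2 (0.24, 0.177) or 3 (0.29, 0.133) and without SW620 replicate 2 (0.27, 0.148) or 3 (0.30, 0.106). With arrays centred on their median the call was lost as well (limma adjusted p = 0.0537). SOX3, the remaining B1 gene, differed by 2.33e-05 on the log2 scale, at means of 3.21 in both lines. SOX11, the remaining group C gene, was dim at 3.13 and 3.33, with a difference of 0.20 that did not pass (limma adjusted p = 0.0915). The group F genes SOX17 and SOX18 differed by 0.0210 and 0.22 and did not pass either (limma adjusted p = 0.888 and 0.142).

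The genes beside the 4 SOX genes that differed by at least 2-fold were compared next, 5 measured genes on each side, a choice made after the differences were seen. Near SOX4 on chromosome 6, 4 of 10 neighbours were higher in SW620 and 0 were lower, against 16.0% and 19.5% of all genes. CDKAL1, a tRNA-modifying enzyme and the nearest measured gene on the left, was 8.37 in SW480 and 9.75 in SW620, a difference of 1.38 (limma adjusted p = 4.56e-08). MBOAT1 differed by 0.52, the non-coding CASC15 by 0.37 and the cell cycle factor E2F3 by 0.31. CASC15 was dim, at 3.49 in SW480 and 3.86 in SW620. The call of E2F3 was lost without SW480 replicate 2 (0.22, limma adjusted p = 0.123), SW620 replicate 2 (0.32, 0.0571) or SW620 replicate 3 (0.28, 0.0719). NBAT1 differed by 0.32 (limma adjusted p = 0.0604) and passed without SW620 replicate 1 (0.44, 0.0127), with centring on the 75th percentile (0.35, 0.0387) and among genes brighter than the median feature (0.32, 0.0455).

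Near SOX2 on chromosome 3, 0 of 10 neighbours were higher and 2 were lower, the lysosomal membrane gene LAMP3 (-0.94) and MCCC1 (-0.46). LAMP3 was dim, at 4.18 in SW480 and 3.24 in SW620, the latter below the 25th percentile feature (3.53). Around SOX14, elsewhere on the same chromosome, 0 were higher and 3 were lower, namely the cohesin subunit STAG1 (-0.72), ARMC8 (-0.53) and the adaptor NCK1 (-0.34). The last of these was lost without SW480 replicate 2 (-0.28, limma adjusted p = 0.0714) or SW620 replicate 1 (-0.30, 0.0553). MSL2, also near SOX14, differed by -0.21 (limma adjusted p = 0.0629). It passed after repeated quantile normalization (-0.23, 0.0408) and cyclic loess (-0.24, 0.0355). MSL2 also passed among genes brighter than the median feature (-0.21, 0.0389) and with trended and robust variance (-0.21, 0.0331). In each of these settings 4 SOX14 neighbours were lower. Near SOX5 on chromosome 12, 1 neighbour was higher (ETFRF1, 0.37) and 1 was lower (SPX, -0.24). SPX lost its call when any array other than SW620 replicate 1 was left out, with adjusted p from limma between 0.0570 and 0.114. CDKAL1 was the only one of these neighbours to differ by 2-fold. The shares over all genes were 16.0% higher, 19.5% lower and 6.07% called with at least 2-fold. Copy number was not measured in these data.

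**Figure D3:**
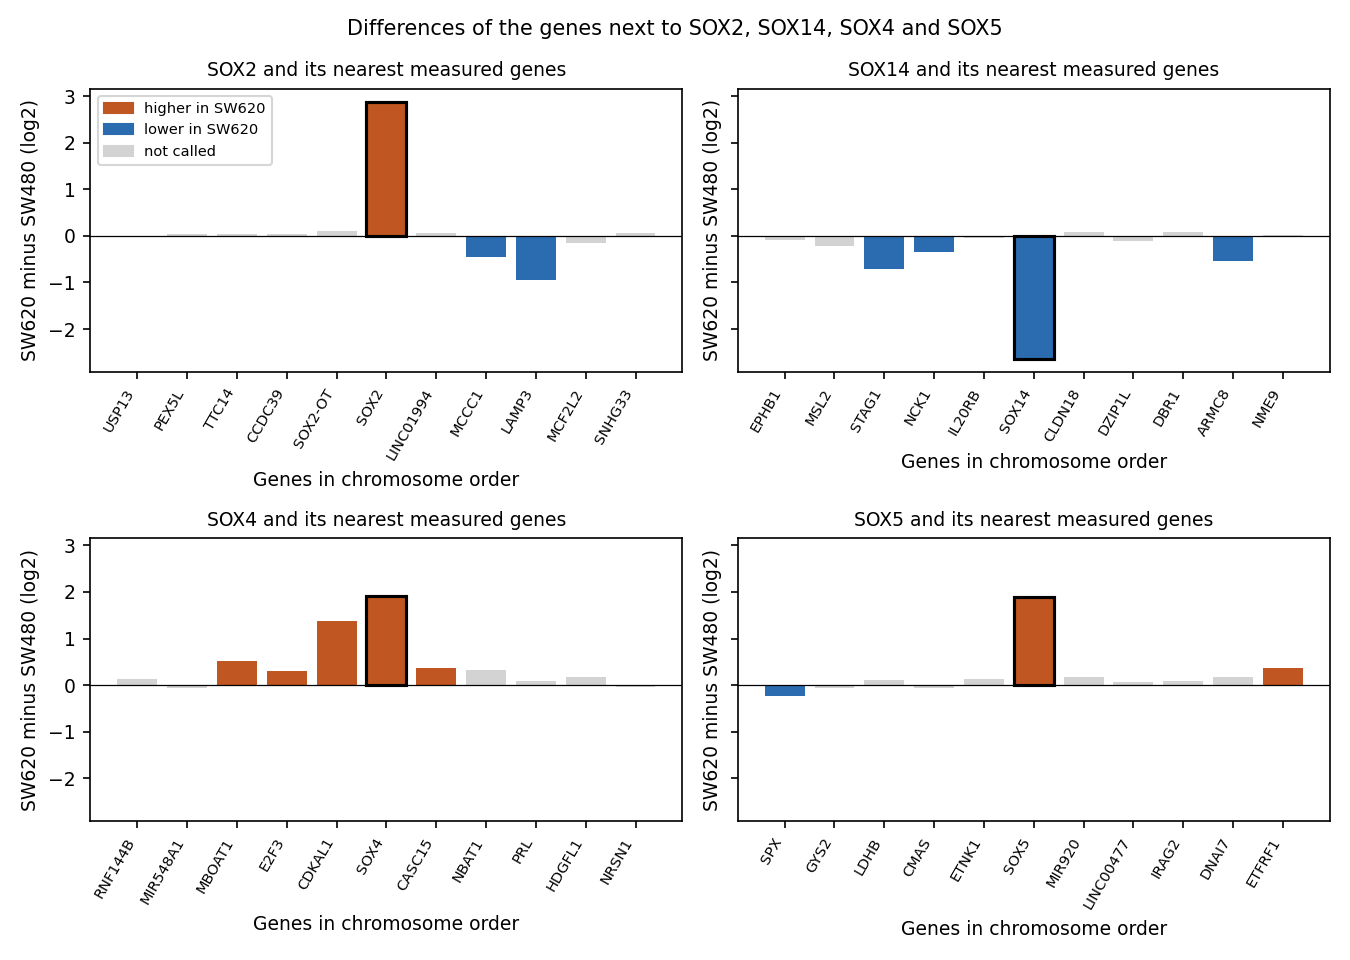
Difference between the lines (SW620 minus SW480, log2) for SOX2, SOX14, SOX4 and SOX5, outlined in black, and for the 5 nearest measured genes on each side in chromosome order. Orange bars were called higher, blue bars lower and grey bars not called by limma. CDKAL1 beside SOX4 (1.38) is the tallest neighbour, while the neighbours of SOX2 lie between -0.94 and 0.11.

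The genes whose pattern over the 6 arrays was most like that of SOX2 were found by the root mean square distance of values centred on each gene's mean. They were MAML2, a coactivator of Notch (0.0565), APOH, a plasma apolipoprotein (0.0784), the epithelial ETS factor EHF (0.0844), PLLP, a myelin and epithelial membrane protein (0.0931), and ERLN (0.0977). With 2 groups of arrays this likeness reflects mainly the size of the difference between lines, which ran from 2.86 for MAML2 to 3.03 for ERLN. MAML2 had a further feature that differed by 0.0824, so its place rests on the brighter feature, and averaging its features gave 1.47.

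Partner and target genes of SOX2 went in both directions. Of 22 measured, 2 were higher, 3 were lower and 17 were not called, where 35.6% of all genes were called, with a median difference of 0.0374 against 0.0132 for all genes. PAX6, a partner of SOX2 in the lens, went from 5.10 ± 0.11 to 4.03 ± 0.0486 (SD, n = 3 each), 2.10-fold lower. ESRRB, an orphan receptor of embryonic stem cells, was 1.88-fold lower. KLF5 and POU3F2, an epithelial factor and a POU partner of SOX2 in neural cells, were 1.38-fold and 1.31-fold higher. The remaining lower gene, POU3F3, named after its values were seen, differed by -0.32 (limma adjusted p = 0.0105). The embryonic partner POU5F1 was 4.29 in SW480 and 4.53 in SW620 (limma adjusted p = 0.0849) and NANOG was 3.38 and 3.47 (limma adjusted p = 0.598); these genes were named after their values were seen.

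SOX2 and CDX2 mark the foregut and the hindgut in development. CDX2 went from 6.22 ± 0.0727 in SW480 to 4.68 ± 0.13 in SW620 (SD, n = 3 each), a difference of -1.54. Among 13 measured foregut and hindgut factors, 3 were higher, 4 were lower and 6 were not called, where 35.6% of all genes were called. The endoderm factors FOXA2 and GATA6 were 4.49-fold and 2.44-fold higher in SW620, whereas the basal keratin KRT5 was 29.6-fold lower. Of the other called genes, named after their values were seen, FOXA3 differed by 0.89, FOXA1 by -0.53 and PDX1 by -0.35. The median of the list, -0.0334, turned above 0 without SW480 replicate 1 (0.0168), without SW620 replicate 3 (0.0113) and over the 7 genes brighter than the median feature (0.00822).

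Crypt and Paneth cell genes linked to SOX9 were split. Of 12 measured, 4 were higher, 3 were lower and 5 were not called, where 35.6% of all genes were called. The stem cell markers LGR5 (8.95-fold) and SMOC2 (6.56-fold), the receptor EPHB3 (2.98-fold) and the Paneth lysozyme LYZ (3.62-fold) were higher in SW620. The mean of the features of LYZ differed by 1.25, in place of 1.86 for its main feature, a shift of more than 1.5 times in fold. The 3 that were lower, named after their values were seen, were IGFBP4 (-0.48), CEACAM1 (-0.45) and ASCL2 (-0.44). Among the 5 not called, also named afterwards, were OLFM4 (3.10 in SW480 and 3.23 in SW620) and ITLN2 (3.47 and 3.43). DEFA5, DEFA6, MMP7, SPINK4, EPHB2, MUC2 and REG4 of this list were not measured, so the list is a partial reading of crypt and Paneth genes. The median of the list was 0.00158, and its sign changed with scaling: it was below 0 after repeated quantile normalization (-0.0190), centring on the median (-0.00786) and cyclic loess (-0.0244). It was also below 0 with a filter at the 25th percentile feature (-0.00454), without SW480 replicate 2 (-0.0313) and without SW620 replicate 1 (-0.0252). Over the 8 genes brighter than the median feature it was 0.72.

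Among the 5 measured cartilage targets of SOX5, SOX6 and SOX9, limma called 0, where 35.6% of all genes were called. An unadjusted p below 0.05 was found for 1 of them. That gene was MATN3, at 3.68 and 3.44 (limma adjusted p = 0.101), and 4 of the 5 had means below the median feature. Of 3 measured targets of group C factors, TEAD2, an effector of Hippo signalling, was 2.49-fold lower in SW620. The methyltransferase EZH2 was 1.37-fold higher, and DCX was not called. SOX4 and TEAD2 thus differed in opposite directions, and SOX4 and EZH2 in the same direction. Regulation of these genes by SOX4 was not tested.

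**Figure D4:**
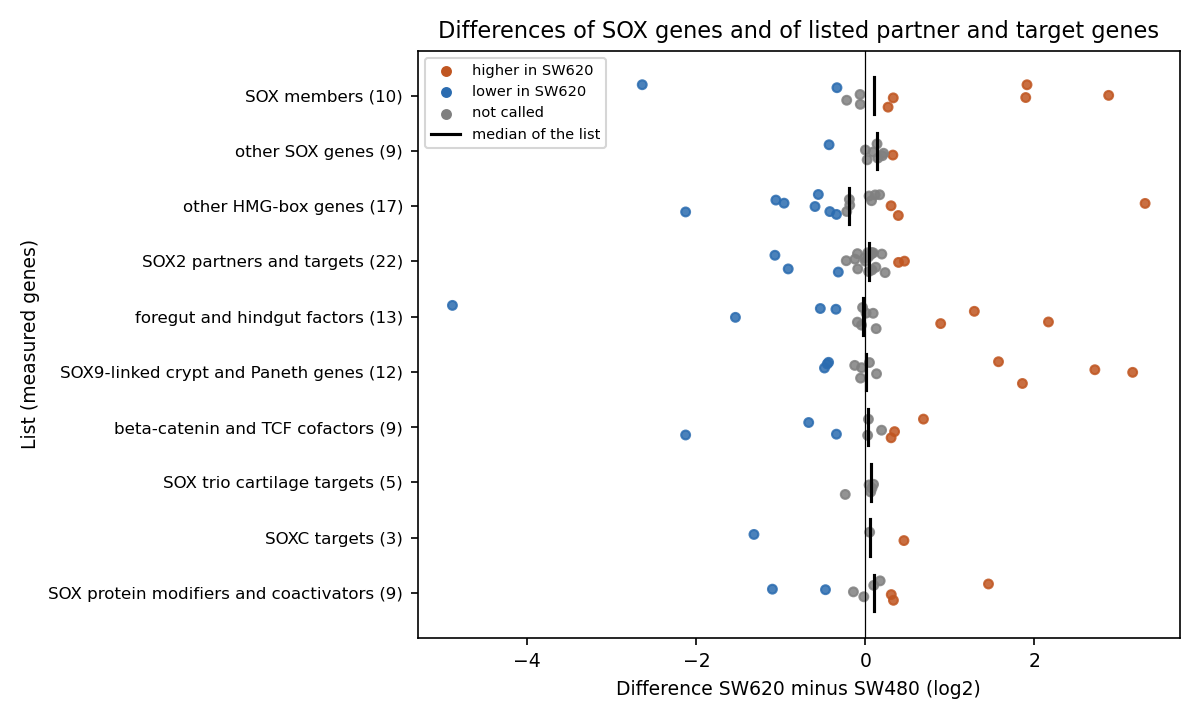
Difference between the lines (SW620 minus SW480, log2) for each measured gene of the SOX group and of 9 lists, with the number of measured genes in brackets and a black bar for the median. Points were spread vertically for legibility only. The SOX members span -2.64 to 2.88, while the other SOX genes stay between -0.43 and 0.33. The members were listed with earlier results of these data known, so this contrast is not a test.

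Of 17 other HMG-box genes, 3 were higher, 7 were lower and 7 were not called, with a median of -0.19. The share called was 35.6% over all genes and 49.8% over genes brighter than the median feature. Of the 17, 1 had a mean below that feature. TOX3 was the largest, at 4.90 ± 0.28 in SW480 and 8.21 ± 0.0807 in SW620 (SD, n = 3 each), 9.91-fold higher. Its relative TOX was 1.95-fold lower. LEF1, a nuclear partner of beta-catenin, was 4.37-fold lower, and the Wnt repressor HBP1 was 2.08-fold lower. Among 9 measured beta-catenin and TCF cofactors, a list that also holds LEF1, 3 were higher and 3 were lower. CTNNB1, TLE1, TLE2, TLE3, TLE4, CTNNBIP1, TCF7, TCF7L1 and TCF7L2 of this list were not measured. LEF1 was thus the only listed TCF/LEF factor that could be read. The coactivator BCL9 was 1.61-fold higher and the feedback gene AXIN2 1.59-fold lower. CTBP2 differed by 0.35 (limma adjusted p = 0.0196) and lost its call without SW480 replicate 1 (0.32, 0.0627), SW480 replicate 3 (0.34, 0.0550) or SW620 replicate 1 (0.24, 0.0877).

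Of 9 measured genes that modify SOX proteins or act with them, 3 were higher, 2 were lower and 4 were not called. The share called was 35.6% over all genes and 49.8% over genes brighter than the median feature. WWP2, a ubiquitin ligase that acts on SOX2, was 2.74-fold higher in SW620, at 7.05 ± 0.0335 against 8.50 ± 0.0736 (SD, n = 3 each). SETD7, a methyltransferase of SOX2, was 2.14-fold lower, and the ubiquitin-conjugating enzyme UBE2S was 1.39-fold lower. The coactivator EP300 differed by 0.33 (limma adjusted p = 0.0146), a call lost without SW480 replicate 2 (0.31, 0.0529) or SW620 replicate 3 (0.24, 0.0562).

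Markers of the labelled cell type and of other cells were read beside these results. Over all genes, 16.0% were called higher and 19.5% lower. Of 8 measured colorectal epithelial markers, 3 were higher and 1 was lower, and their mean log2 level was 7.22 to 7.29 over the SW480 arrays and 7.25 to 7.28 over the SW620 arrays. EPCAM (9.71 and 9.61) and KRT18 (11.6 and 11.7) were bright in both lines, VIL1, KRT19 and KRT8 were 1.54-fold, 1.42-fold and 1.32-fold higher, CDX2 was 2.90-fold lower, and KRT20 and CDX1 were dim. None of 8 endothelial markers was called, with 0 at an unadjusted p below 0.05 in limma, and their mean level was 3.67 to 3.73 in SW480 and 3.70 to 3.81 in SW620. TIE1, with the smallest p, differed by 0.11. Limma also called 0 of 4 glial markers, with 0 at an unadjusted p below 0.05, and their mean level was 3.87 to 3.99 and 3.98. Of 2 measured fibroblast markers, LUM was 9.34-fold higher and DCN was not called (3.09 and 3.26), and their mean level was 3.74 to 4.11 in SW480 and 5.55 to 5.67 in SW620. Of 3 leukocyte markers, CD68 was 1.35-fold higher and LAPTM5 1.33-fold lower, with a mean level of 5.25 to 5.30 and 5.26 to 5.33. The samples are labelled as spheroid cultures of the 2 lines, with no other cell type named. Whether these marker levels relate to the SOX differences was not tested.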

How the data were processed

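Values are log2 expression per array feature as deposited, made by the authors with RMA and Partek, per the submitters' processing notes (versions: not given in the sources used here). That method removes background, quantile-normalizes and summarises probes, which can understate folds of dim genes. The log base was inferred from the range (1.99 to 13.9). Of 53616 features, platform annotation named 16098, covering 14884 genes, and 37518 had no symbol here. Across genes, arrays correlated at 0.994 to 0.996 within a line and 0.951 to 0.954 between lines, and their number limits the precision.

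SW620 was compared with SW480 by limma 3.58.1 (R 4.3.3; lmFit, eBayes, two-sided, no covariates). P-values were adjusted by Benjamini-Hochberg over 14884 genes, with calls below 0.05. The 95% intervals are unadjusted. Named genes were all 10 SOX genes, up to 4 called genes of each list by size of difference (or the smallest p), and the 5 genes most like the most changed SOX gene. The SOX genes, 9 gene lists and 5 marker lists were chosen with earlier results of these data known. Alternatives covered scaling, dim-feature filters, variance models, feature rules, thresholds, a replicate block and leaving out arrays. Tested on simulated data of 14884 genes, the fit recovered 46 of 50 genes at a log2 change of 0.5 and all 50 at each of 1, 2 and 3. It called 209 genes, of which 13 had not been changed, and 0 when no gene was changed. The simulated noise was independent and drawn from the fit's own variances, with far fewer genes changed than were called here. The simulation therefore checks the code and not these arrays.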

Additional observations from a re-analysis of the deposited data

How the results depend on the processing

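All 10 SOX genes kept their direction under every alternative in which they were tested, and the differences ran from 2.84 to 2.90 for SOX2, 1.85 to 1.97 for SOX4, 1.78 to 1.98 for SOX5 and -2.68 to -2.56 for SOX14. These 4 genes passed in each of 18 alternatives. Of the 5 genes called higher, 3 remained when every feature was tested separately, with a minimum of 1.2-fold in limma's treat test, or at an adjusted p below 0.01; SOX7 and SOX13 were lost. Leaving out 1 array gave between 3 and 5 higher and 2 lower each time. Of the 2 genes called lower, 1 remained with treat, where SOX6 was lost (adjusted p = 0.733), and 1 with genes brighter than the median feature, where SOX6 and SOX21 were not tested. With the replicate number as a block, 5 were higher and 2 were lower, as without it. Same-numbered arrays of the lines did not deviate together (correlations of -0.00889, -0.0234 and -0.0119), so the numbers were not taken as pairs; the block gave 2353 higher and 2862 lower genes over all, against 2388 and 2905. With the block, limma's adjusted p was 0.0584 for SOX8, 0.0510 for SPX and 0.0162 for NBAT1, so that SOX8 and SPX were not called and 5 of 10 SOX4 neighbours were higher. When arrays were centred on their 75th percentile, 2686 genes were higher and 2685 lower, with 5 and 2 among the SOX genes. Without detection calls, the folds of SOX14, SOX5 and SOX6 are limited by their dim side.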
